A study of Arabidopsis thaliana with 2 samples.

Results

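The 10 genes described here encode the ethylene receptors and the core of the ethylene signalling pathway of Arabidopsis thaliana: the receptors ETR1, ERS1, ETR2, ERS2 and EIN4, the kinase CTR1, the membrane protein EIN2, the transcription factor EIN3, and the F-box proteins EBF1 and EBF2. They were chosen by locus identifier for their place in the pathway, not by a measured value, although earlier results of these data were known. All 10 were found in a table of 33557 loci. The table holds 1 RNA-seq library from leaves of wild type plants of ecotype Columbia and 1 from leaves of the same ecotype that were homozygous for Atclb1-1, which the labels describe as a knockout of AtCLB by T-DNA. The AtCLB protein binds lipids through a domain that responds to calcium. Plants of both genotypes were 2 weeks old and had grown at 23 °C with 16 h of light per day, with no other treatment given in the labels. The number of plants per library is not stated in the labels, and with 1 library per genotype no difference below has a replicate check or a p-value.

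Ethylene is a gaseous hormone of ripening, senescence, stress and growth. Its receptors sit in the endoplasmic reticulum and act as negative regulators: without ethylene they keep CTR1 active, and CTR1 phosphorylates EIN2 and holds it back. When ethylene binds, this brake is released, a cleaved end of EIN2 reaches the nucleus, and EIN3 and its relative EIL1 accumulate and switch on target genes. EBF1 and EBF2 direct EIN3 and EIL1 to the proteasome, and the EBF2 gene is itself a target of EIN3. Much of the pathway is thus controlled at the protein level, which RNA levels do not show.

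The level of a gene is given in FPKM, a count of fragments divided by the length of the transcript and by the size of the library, so levels of different genes can be set side by side. A difference is log2((Atclb1-1 FPKM + 1)/(wild type FPKM + 1)), which understates differences of low genes, and a fold for a single gene is the plain ratio of its FPKM values. Where a pair of values follows a gene, wild type comes first and Atclb1-1 second. Of the 33557 loci, 18171 reached 1 FPKM in at least 1 library, with a median difference of 0.21 and the central 90% between -1.52 and 2.05. AtCLB was at 39.2 FPKM in wild type leaves and 13.5 FPKM in Atclb1-1 leaves. RNA of the disrupted gene thus remained at 0.345 times its wild type level, whereas the labels call the line a knockout. The value covers the whole locus, the part of the gene that the insertion disrupts was not examined, and the genotype is given as labelled. Root markers were listed at 0 in both libraries (3 of 3 genes), while the 4 leaf mesophyll markers summed to 35984 FPKM in wild type leaves and 20235 FPKM in Atclb1-1 leaves. Of these 4 markers 3 were lower in the Atclb1-1 library, and RCA was higher, at 3643 and 6038 FPKM. The libraries also differed widely outside the ethylene pathway. The 5 dawn-phased clock genes summed to 21.4 and 386 FPKM, the 5 evening-phased clock genes to 702 and 61.0 FPKM, and the 3 senescence markers to 130 and 1252 FPKM, in wild type and the Atclb1-1 library respectively. The part of clock phase, leaf age or genotype in any difference below was not tested, and they cannot be told apart with 1 library per genotype. In RNA from whole leaves, fewer cells of a type and less RNA per cell cannot be told apart either.

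Among the core pathway genes EIN2 stood highest and EBF2 lowest in the Atclb1-1 library relative to wild type, and the counts of members past a threshold were close to the shares of all loci. All 10 genes passed 1 FPKM in a library, ETR2 and ERS2 through wild type alone. Counting differences of 2-fold or more on the log2(FPKM + 1) scale, no member was higher in the Atclb1-1 library, against 17.2% of all loci that passed, and 1 member, EBF2, was lower, against 10.8% of loci. All 10 lay inside the central 90% of loci. Their median difference was 0.04, beside 0.21 for all loci, with 5 members above 0 and 5 below, and the median turned to -0.11 when the median ratio of all well-measured loci was set to 0. No member reached 4-fold, against 5.29% of loci higher and 2.64% lower. At 1.5-fold on the log2(FPKM + 1) scale, 3 members were higher (ETR1, EIN2 and EIN3) and 1 lower (EBF2), beside 30.8% and 19.0% of loci. By the plain ratio EIN4 also lay above 1.5-fold, and ERS1 lay at that threshold below. By the plain ratio of FPKM, EIN2 was 2.07-fold higher and EBF2 2.12-fold lower, and no other member reached 2-fold in either direction.

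**Figure D1:**
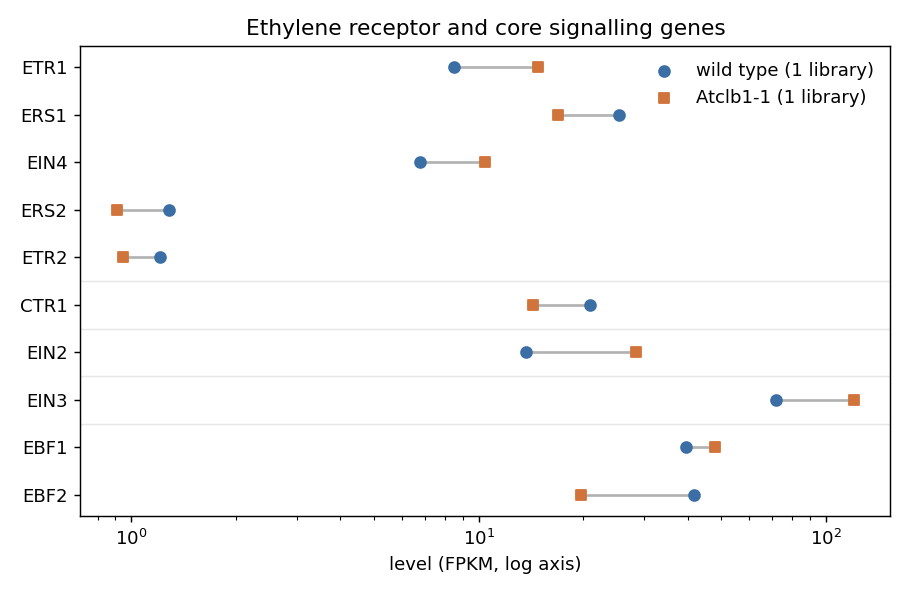
Level of each member in FPKM (log axis) in the wild type library (circles) and the Atclb1-1 library (squares), 1 library each, with grey lines joining the values of a gene. EIN3 has the highest level in both libraries (71.9 and 120 FPKM), and ETR2 and ERS2 lie close to 1 FPKM in both.

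**Figure D2:**
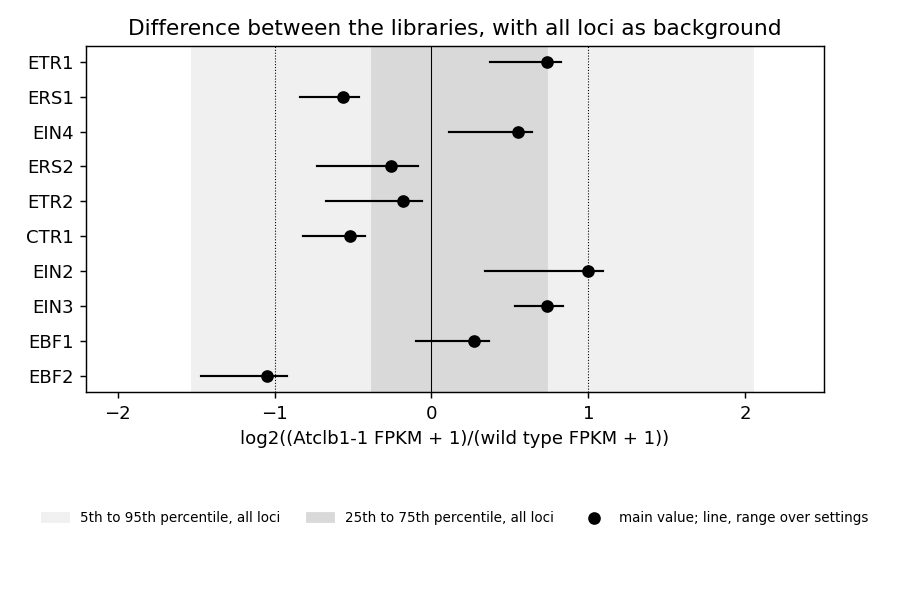
Difference of each member on the log2(FPKM + 1) scale (dots) with its range over the main setting and 7 other processing settings (lines), over shaded percentile ranges of the 18171 loci that passed the filter. All 10 dots lie inside the range from the 5th to the 95th percentile, EBF2 lies farthest below 0 at -1.05, and the line of EBF1 crosses 0.

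The stretches before the gene start are shown for the members whose levels stood farthest apart or that differ from a close relative, as the 250 bases before the annotated start on the gene's own strand, from the RefSeq TAIR10.1 genome. The sets are the F-box pair EBF1 and EBF2, EIN2 as the member with the highest uncorrected difference, and ETR1 as the receptor with the highest difference. Capitals mark ATGTA or its reverse complement TACAT, the core letters bound by EIN3, and in ETR1 also the evening element AAATATCT, here on the opposite strand as AGATATTT.
EBF2 (chr5:8797350-8797599, minus strand): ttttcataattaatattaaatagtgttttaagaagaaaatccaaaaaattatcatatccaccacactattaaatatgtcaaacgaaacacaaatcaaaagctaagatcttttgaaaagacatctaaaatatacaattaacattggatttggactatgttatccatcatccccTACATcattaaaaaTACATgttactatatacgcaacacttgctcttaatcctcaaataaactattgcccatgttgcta
EBF1 (chr2:10850798-10851047, minus strand): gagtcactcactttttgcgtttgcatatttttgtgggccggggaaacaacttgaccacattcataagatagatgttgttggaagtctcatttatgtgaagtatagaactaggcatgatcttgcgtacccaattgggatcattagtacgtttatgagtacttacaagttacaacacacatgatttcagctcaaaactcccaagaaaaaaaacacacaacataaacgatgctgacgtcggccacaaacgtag
EIN2 (chr5:787178-787427, plus strand): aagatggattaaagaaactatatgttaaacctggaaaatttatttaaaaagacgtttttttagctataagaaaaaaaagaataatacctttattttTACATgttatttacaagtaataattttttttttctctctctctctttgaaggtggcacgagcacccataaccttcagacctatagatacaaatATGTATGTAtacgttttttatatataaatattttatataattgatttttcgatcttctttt
ETR1 (chr1:24733912-24734161, plus strand): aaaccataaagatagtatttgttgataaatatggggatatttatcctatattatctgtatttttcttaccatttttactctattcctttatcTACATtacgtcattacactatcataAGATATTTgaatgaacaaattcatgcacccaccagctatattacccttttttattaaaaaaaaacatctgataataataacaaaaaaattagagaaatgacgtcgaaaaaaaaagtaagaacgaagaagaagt

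The receptors fall into subfamily 1, ETR1 and ERS1, which keep a functional histidine kinase domain, and subfamily 2, ETR2, ERS2 and EIN4, which have lost its conserved residues. ETR1, ETR2 and EIN4 end in a receiver domain that ERS1 and ERS2 lack, and their coding regions are longer, for 738, 773 and 766 residues against 613 for ERS1 and 645 for ERS2. ERS1, the receptor with the highest level, was at 25.4 FPKM in wild type leaves and 16.9 FPKM in Atclb1-1 leaves, a difference of -0.56. ETR1, the receptor in which dominant ethylene insensitivity was first mapped, was at 8.51 and 14.8 FPKM, 1.74-fold higher. EIN4 was at 6.78 and 10.4 FPKM, 1.53-fold higher. Subtracting medians by transcript length and GC content took the difference of ETR1 from 0.74 to 0.37, that of EIN4 from 0.55 to 0.11 and that of ERS1 from -0.56 to -0.84.

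The remaining receptors were near the filter of 1 FPKM. ERS2 was at 1.28 FPKM in wild type leaves and 0.910 FPKM in Atclb1-1 leaves, and ETR2 at 1.21 and 0.947 FPKM. From the step size of low values these levels stand for roughly 47 to 51 and 39 to 43 fragments for ERS2, and 55 to 59 and 50 to 54 fragments for ETR2. Counting error alone would then be about 21.7% of the ratio for ERS2 and 19.5% for ETR2, close to the measured differences of 29.0% and 21.9%. No difference in ERS2 or ETR2 was therefore resolved at this depth. For ETR1, ERS1 and EIN4 the same estimate of counting error was 6.65%, 5.09% and 6.97%, smaller than their differences, but it leaves out all variation between plants.

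As deposited, receptor transcripts added up to nearly the same level in both libraries, 43.2 FPKM in wild type leaves and 44.0 FPKM in Atclb1-1 leaves, while their composition differed. The likeness of the sums depends on how the libraries are scaled and was not examined in other settings, whereas the shares do not depend on it. ERS1 made up 58.9% of the sum in wild type and 38.4% in the Atclb1-1 library. ETR1 made up 19.7% and 33.7%, and EIN4 15.7% and 23.6%. ERS2 and ETR2 made up 2.96% and 2.81% in wild type and 2.07% and 2.15% in the Atclb1-1 library. ERS1, ETR1 and EIN4 stood in that order in both libraries. The order of ERS2 and ETR2 was swapped, and their levels were close together in both libraries. The level of ERS1 was 2.99 times that of ETR1 in wild type and 1.14 times in the Atclb1-1 library, a ratio that does not depend on how the libraries are scaled.

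Grouped by structure, subfamily 1 gave 78.5% of receptor transcripts in wild type and 72.1% in the Atclb1-1 library. Receptors with a receiver domain gave 38.2% and 59.5%. Transcripts of ERS1, ETR2 and ERS2 are known to increase in response to ethylene, whereas those of ETR1 and EIN4 are not. The 3 ethylene-inducible receptor genes together gave 64.6% of receptor transcripts in wild type and 42.7% in the Atclb1-1 library. This last grouping was made after the values had been seen, and it rests on ERS1, since no difference in ERS2 or ETR2 was resolved. The groupings by structure were not planned results either. The split by receiver domain and the last grouping both mainly set ETR1 and EIN4 against ERS1, so they are not separate results.

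**Figure D3:**
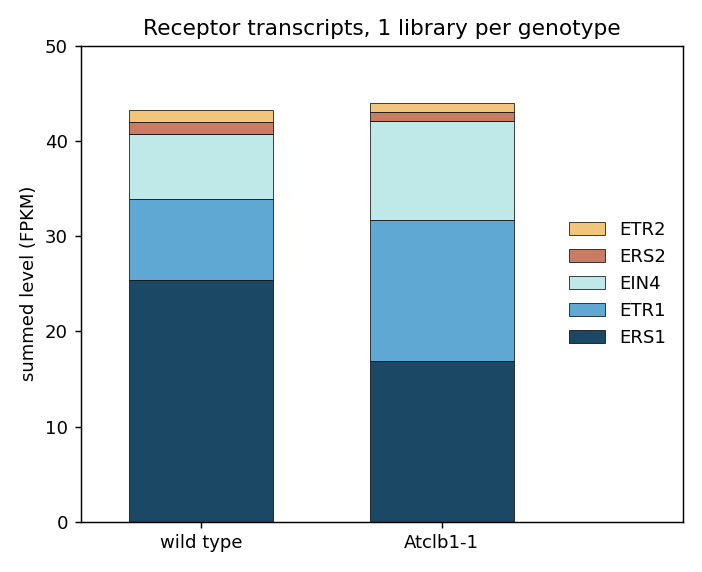
Summed FPKM of the 5 receptor genes in each library (bars from 0), split by receptor. The bars are of nearly equal height, 43.2 and 44.0 FPKM, and the ERS1 segment is 25.4 FPKM high in wild type, against 16.9 FPKM in the Atclb1-1 library.

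The middle of the pathway consists of a negative and a positive regulator, and they differed in opposite directions. CTR1, the Raf-like kinase that the receptors keep active, was at 21.0 FPKM in wild type leaves and 14.4 FPKM in Atclb1-1 leaves, 1.46-fold lower. EIN2, the central positive regulator, was at 13.7 and 28.4 FPKM, and its difference of 1.00 fell just under 2-fold on the log2(FPKM + 1) scale. Of all loci that passed, 82.8% had a lower difference than EIN2, and 20.8% had a lower difference than CTR1. The level of EIN2 was 0.654 times that of CTR1 in wild type and 1.98 times in the Atclb1-1 library. EIN2 has the longest transcript of the members, 4851 nt, and long transcripts were on balance higher in the Atclb1-1 library. The median difference was 0.49 for the 1801 loci with the longest transcripts and 0.043 for the 1801 with the shortest. After medians by transcript length and GC content were subtracted, the difference was 0.34 for EIN2 and -0.82 for CTR1. In that setting EIN3 at 0.53 and ETR1 at 0.37 stood above EIN2.

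EIN3, the transcription factor at the end of the pathway, was at 71.9 FPKM in wild type leaves and 120 FPKM in Atclb1-1 leaves, 1.67-fold higher. Its closest relative EIL1, which acts beside it, was at 44.4 and 14.2 FPKM, 3.12-fold lower. Their summed level, which depends on library scaling, was 116 FPKM in wild type leaves and 135 FPKM in Atclb1-1 leaves. The ratio of EIN3 to EIL1, which does not, was 1.62 and 8.46. Only 4.64% of all loci that passed had a lower difference than EIL1. EIL1 is no member of the set of 10 and is given here because it shares the function of EIN3. The coding sequences of EIN3 and EIL1 were 82.2% identical over aligned bases. Of the 31-nt windows of their exons 97.9% (EIN3) and 97.8% (EIL1) occurred at 1 place in the genome, so a small share of their reads could have been divided between them.

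The F-box genes also differed from each other. EBF1 was at 39.6 FPKM in wild type leaves and 47.9 FPKM in Atclb1-1 leaves, a difference of 0.27 that turned to -0.10 after medians by transcript length and GC content were subtracted. EBF2 was at 41.8 and 19.8 FPKM, a difference of -1.05, and 10.1% of all loci that passed had a lower one. The pair had nearly equal levels in wild type, where the ratio of EBF2 to EBF1 was 1.06, and the ratio was 0.412 in the Atclb1-1 library. Their summed level, which depends on library scaling, was 81.5 and 67.7 FPKM. The level of EIN3 was 1.72 times that of EBF2 in wild type and 6.09 times in the Atclb1-1 library. The coding sequences of EBF1 and EBF2 were 66.3% identical, and every 31-nt window of their exons occurred at 1 place.

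The positions and gene models bear on how far these values can be trusted. ETR1 (AT1G66340) lies on TAIR10.1 chromosome 1 from 24734162 to 24737756 on the plus strand, and ERS2 (AT1G04310) on chromosome 1 from 1154740 to 1157813 on the minus strand. ERS1 (AT2G40940) lies on chromosome 2 from 17084321 to 17087326 and EBF1 (AT2G25490) on chromosome 2 from 10847375 to 10850797, both on the minus strand. On chromosome 3, ETR2 (AT3G23150) spans 8254559 to 8257888 on the plus strand, EIN4 (AT3G04580) 1235209 to 1238630 on the minus strand, and EIN3 (AT3G20770) 7260429 to 7263384 on the minus strand. On chromosome 5, CTR1 (AT5G03730) spans 974360 to 979849 on the minus strand, EIN2 (AT5G03280) 787428 to 793404 on the plus strand, and EBF2 (AT5G25350) 8794252 to 8797349 on the minus strand. All are protein-coding, with 15 exons in CTR1 and 2 in ETR2, EIN4, EIN3, EBF1 and EBF2.

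Overlap with another gene was found for 3 members. EBF2 shares 533 bp with AT5G25340 on the opposite strand, which was at 0.0684 FPKM in wild type leaves and 1.22 FPKM in Atclb1-1 leaves, and 187 bp with the antisense RNA gene AT5G03965, which has no row in the table. ERS1 shares 56 bp with AT2G40935 on the opposite strand, at 15.9 and 8.19 FPKM. ETR1 shares 38 bp with AT1G66345 on its own strand, at 1.13 and 1.89 FPKM. The labels do not say whether strand was used when fragments were assigned. The values of EBF2 and ERS1 are therefore uncertain to the extent of these overlaps. Strand could not resolve the overlap of ETR1, so its value is uncertain to that extent too. For the other 7 members no overlapping gene is annotated.

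The sequences before the start of 9 members, all but EIN3, were searched on both strands for ATGTA, the core bound by EIN3, and for the clock-linked evening element AAATATCT, the CCA1-binding site AAAAATCT, the G-box CACGTG and the GCC-box GCCGCC bound by ethylene response factors. In the 250 bases before the start, ATGTA occurred in 5 of these 9 members, beside 52.0% of 27443 protein-coding genes. EIN2 had 3 matches, ETR2 and EBF2 had 2 each, and ETR1 and ERS2 had 1 each, while ERS1, EIN4, CTR1 and EBF1 had none. The windows of ERS1 and EIN4 reach into the neighbouring genes AT2G40950 and AT3G04590. In EIN2 a pair of matches overlaps by a base. Over 1000 bases all 9 held it, beside 93.7% of genes, from 10 matches in EIN2 and 8 in EBF2 to 2 in CTR1 and 1 in EIN4. The mean over all genes was 3.32 matches.

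The evening element occurred within 250 bases of ETR1 alone among these 9 members, 133 bases before the start, beside 4.79% of genes. Within 1000 bases ETR1, ETR2 and ERS2 held it, beside 15.3% of genes. The CCA1-binding site, the G-box and the GCC-box were found in none of the 9 over 1000 bases, beside 21.1%, 14.8% and 8.44% of genes. These matches describe letters in a window, and no binding was measured.

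**Figure D4:**
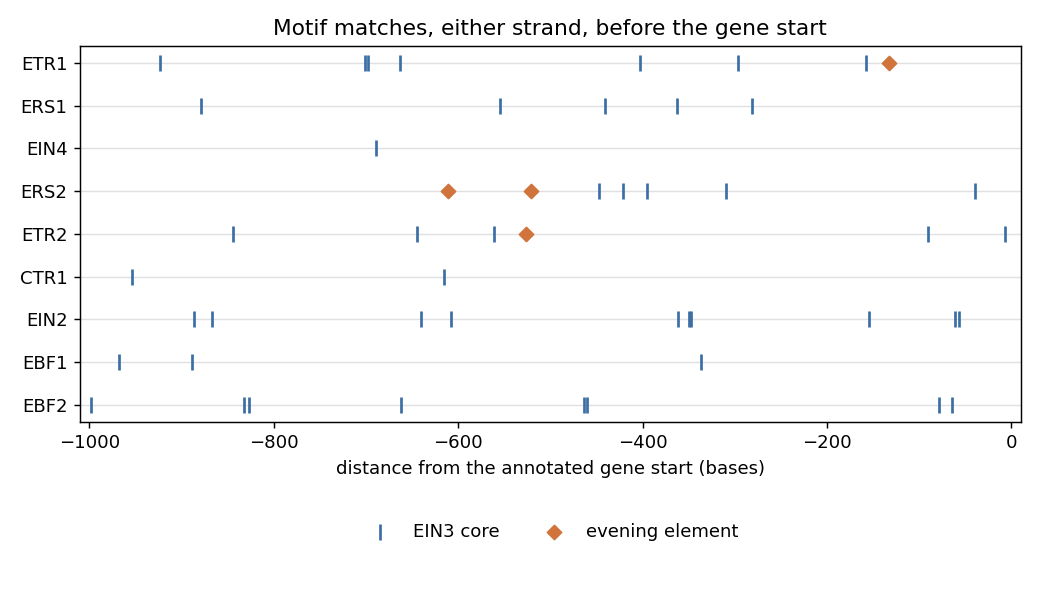
Matches to the EIN3 core (blue ticks) and the evening element (orange diamonds) on either strand in the 1000 bases before the annotated start of 9 members, by distance from the start. EIN2 holds 10 ticks and EIN4 1, and diamonds stand in the rows of ETR1, ETR2 and ERS2.

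Of 13 other signalling components 11 passed the filter, with none at least 2-fold higher on the log2(FPKM + 1) scale, beside 17.2% of all loci, and 1, EIL1, at least 2-fold lower, beside 10.8%. Their median difference of 0.21 equalled that of all loci. RAN1, the copper transporter that loads the receptors with their ethylene-binding cofactor, was at 19.1 and 35.6 FPKM. RTE1, which stabilises the signalling state of ETR1, was at 9.49 and 6.36 FPKM, while its homologue RTH was at 15.6 and 13.5 FPKM. ETP1 and ETP2, F-box proteins that target EIN2, stood at 17.0 and 19.9 FPKM (ETP1) and 3.72 and 3.66 FPKM (ETP2). EIN5, an exoribonuclease also called XRN4 that limits EBF1 and EBF2 RNA, was at 9.96 and 14.5 FPKM. EIL3, a relative of EIN3 that regulates the response to sulfur limitation, was at 6.73 and 13.6 FPKM, and ARGOS, which dampens ethylene sensitivity, at 0.514 and 1.70 FPKM. By the plain ratio EIL3 was 2.03-fold and ARGOS 3.31-fold higher. ARGOS passed the filter through the Atclb1-1 library alone, and its ratio rests on a wild type level below 1 FPKM.

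The ubiquitin ligase that carries EBF1 and EBF2 showed no member at 2-fold. ASK1, its adaptor, was at 269 and 255 FPKM, ASK2 at 75.3 and 64.6 FPKM, the scaffold CUL1 at 69.6 and 105 FPKM, and RBX1 at 95.1 and 79.0 FPKM. Their median difference was -0.15.

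Genes downstream of EIN3 lay on both sides of 0. Of 9 transcription factor genes of the ethylene response 8 passed the filter, and 1 of these was higher and 1 lower by 2-fold or more on the log2(FPKM + 1) scale, close to the 17.2% and 10.8% of all loci. Their median was 0.42, with 6 above 0 and 2 below, beside 10974 of 18171 loci above 0. RAV2, also called EDF2, was higher at 14.7 and 53.8 FPKM, and ERF5 was lower at 35.5 and 16.3 FPKM. ERF1, a direct target of EIN3, was at 1.48 and 3.68 FPKM, a difference of 0.91, or 2.48-fold higher by the plain ratio. ORE1, a NAC factor of leaf senescence that lies downstream of EIN2, was at 12.5 and 13.1 FPKM. Among 4 late response genes 3 lay above 0 and 1 below. HEL, a hevein-like gene, was at 74.2 and 171 FPKM. HLS1, an apical hook gene, was at 1.83 and 2.03 FPKM. CHIB and PDF1.2A were the members of this list farthest apart, with differences of 3.81 and -3.08. CHIB was at 0.614 and 21.6 FPKM and passed the filter through the Atclb1-1 library alone. PDF1.2A was at 98.7 and 10.8 FPKM. Jasmonate also acts on CHIB, HEL and PDF1.2A.

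Of 14 ethylene synthesis genes 7 passed the filter, but ACS2, ACS7 and ACS8 did so through the Atclb1-1 library alone and AT1G12010 through wild type alone, so no count is read from those that passed. With no filter the median difference over all 14 was 0. ACS6, the ACC synthase with the highest level, was at 59.6 and 124 FPKM, and ACS2 was at 0.808 and 7.36 FPKM. ACS8 was at 0.329 and 2.54 FPKM, ACS7 was listed at 0 in wild type and at 1.82 FPKM in Atclb1-1, and AT1G12010 was the lower gene at 2.41 and 0.346 FPKM.

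**Figure D5:**
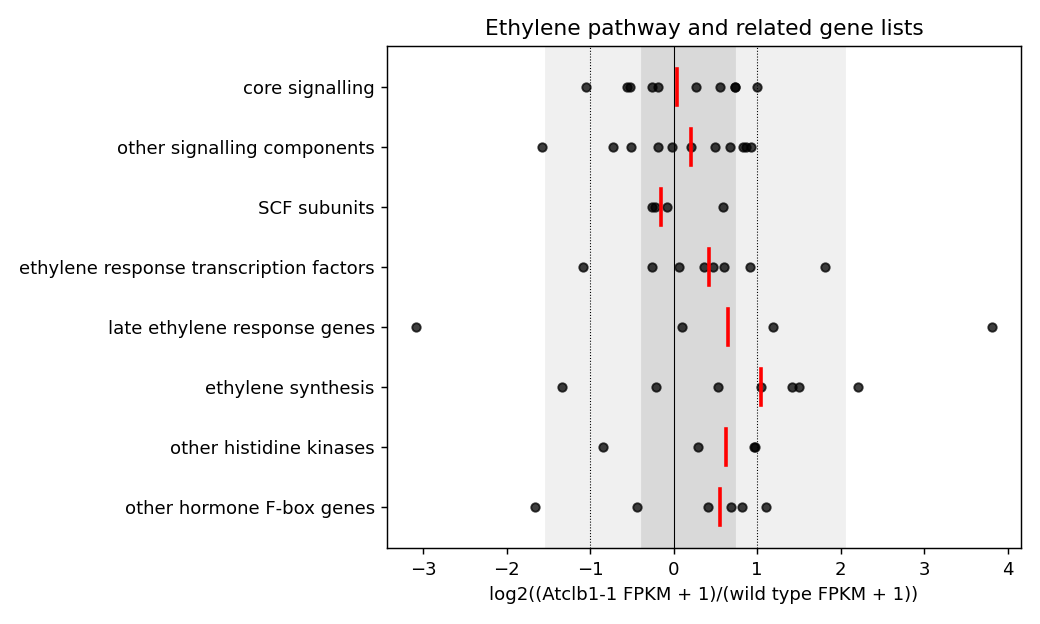
Difference of each gene that passed 1 FPKM in a library (dots) on the log2(FPKM + 1) scale, by list, with list medians (red bars) over shaded 5th to 95th and 25th to 75th percentiles of all loci. The core signalling dots lie between -1.05 and 1.00 and those of the late response genes between -3.08 and 3.81, and genes that passed through 1 library alone are included.

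Related receptor and F-box families give a scale for these values. The ethylene receptors are relatives of the other histidine kinases, of which 4 of 6 passed the filter and none reached 2-fold on the log2(FPKM + 1) scale, although AHK1 was 2.04-fold higher and AHK2 2.17-fold lower by the plain ratio. AHK3, a cytokinin receptor, was at 23.1 and 45.8 FPKM, and the cytokinin receptor AHK2 at 4.68 and 2.15 FPKM, so this family too held members on both sides of 0. These transcripts are long, and subtracting medians by transcript length and GC content took the family median from 0.62 to 0.09. In that setting AHK1 was at 0.46, AHK3 at 0.39 and AHK2 at -1.36. Of 6 F-box genes of other hormone pathways 1 was higher and 1 lower by 2-fold or more on that scale, again close to the shares of all loci (17.2% and 10.8%). MAX2, which acts in strigolactone signalling, was at 8.27 and 19.0 FPKM, and the auxin receptor gene AFB1 at 6.79 and 1.47 FPKM. The jasmonate receptor gene COI1 was at 17.8 and 32.2 FPKM. With 1 library per genotype, no difference between these families and the ethylene core could be tested.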

How the data were processed

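The table deposited by the authors holds FPKM values, per the file headers, in 1 column for each library, matched to the sample titles. Genotypes come from the labels. Libraries were made with a directional kit, per the labels' protocols, and TopHat 1.3.2 and Cuffdiff with the TAIR10 build were used, per the submitters' processing notes. Parameters, filters, annotation and use of strand are not stated there, and read counts were not used here. FPKM depends on the library total, so abundant genes can shift all other values.

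Differences used a pseudocount of 1 FPKM, a filter of 1 FPKM in at least 1 library and a threshold of 2-fold. No test was possible with 1 library per genotype. The counting of differences was also run on simulated data, which checks the calculation only and not the differences reported here. The steps between values under 1 FPKM gave the depth: among 2434 loci the Atclb1-1 value was most often 0.826 times the wild type value, so the Atclb1-1 library was estimated as 1.21 times deeper. The product of FPKM and transcript length most often lay between 0.065 and 0.07 in wild type and between 0.055 and 0.06 in the Atclb1-1 library, taken as 1 fragment on 1 kb. Fragment numbers are estimates from these steps and TAIR10.1 transcript lengths, and cover counting error only.

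Gene models, coordinates and sequences came from the RefSeq TAIR10.1 annotation and genome, which matched 32810 of 33557 identifiers. Lengths are those of the longest transcript, and coding lengths those of the longest coding region. Windows of 31 nt were looked up on both strands of the genome, the sequence before the start of EIN3 is not reported here, and coding sequences were aligned globally with Biopython 1.88. Python 3.11.15 was used throughout.

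The members and companion lists were chosen with earlier results of these data known. All 10 members were to be named, and of each companion list the measured genes at least 2-fold apart and up to 3 with the largest difference; further genes were named for their role with values in view. The alternatives tried were pseudocounts of 0.1 and 5 FPKM, the median ratio of 11724 loci set to 0 (a shift of 0.21 in log2), equal nuclear totals, no filter, a filter at 5 FPKM, thresholds of 1.5-fold and 4-fold, list means, and subtraction of medians in 20 bins of transcript length with 10 bins of GC content each.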

Additional observations from a re-analysis of the deposited data

How the results depend on the processing

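Of the 10 members, 9 kept the sign of their difference in every setting that gave a value, and EBF1 did not: it was -0.10 after length and GC medians were removed. A change of pseudocount or filter cannot reverse the sign of a single gene. Only the shift of the median ratio, equal nuclear totals and the removal of length and GC medians could do so. ETR2 and ERS2 have no value with the filter at 5 FPKM. EIN2 and EBF2 lie at the 2-fold threshold, so their counts moved. EIN2 was at 1.04 with a pseudocount of 0.1 FPKM and 1.09 with equal nuclear totals, where 1 member was at least 2-fold higher. EBF2 was at -0.92 with a pseudocount of 5 FPKM and -0.95 with equal nuclear totals, where 0 members were at least 2-fold lower. At 1.5-fold 3 members were higher, and at 4-fold 0 were lower. The median of the 10 members was -0.026 with a pseudocount of 0.1 FPKM, -0.11 with the median ratio set to 0 and -0.38 after length and GC medians were removed, so it has no stable sign. The median of the other signalling components was -0.018 with no filter and -0.0051 after length and GC medians were removed, and that of the synthesis genes was 0 with no filter. The median of 4 reference genes was -0.14 with the median ratio set to 0 and -0.17 after length and GC medians were removed. The dawn and evening clock medians were 2.80 and -3.35 with a pseudocount of 5 FPKM. With 1 FPKM added to each receptor, the shares of ERS2 and ETR2 were 4.73% and 4.59% in wild type and 3.90% and 3.97% in the Atclb1-1 library. The cause of the EBF1 sign change was not tested. No paired analysis was possible because each genotype has 1 library and no test was made. Depth limits ETR2 and ERS2, with fewer than 60 estimated fragments per library.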
